A study of Mus musculus with 10 samples.

Results

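The subunit genes of the AMPA receptors (Gria1, Gria2, Gria3 and Gria4) and of the kainate receptors (Grik1, Grik2, Grik3, Grik4 and Grik5) were followed in single-cell RNA-seq of mouse cortex at embryonic stage E16.5. The members were taken by gene symbol, 9 of the 31053 genes listed, and each was read per embryo and per cell class in cells with at least 1000 unique molecular identifiers (UMIs, counts of distinct captured mRNA molecules) and at most 10% mitochondrial UMIs. Cortices came from 3 Gatad2b WT embryos, 4 Het embryos (stop/+) and 3 KO embryos (stop/stop), with 1 10x Genomics 3′ library for each embryo. The stop allele, Gatad2b tm1a(EUCOMM)Hmgu, carries a gene-trap cassette in the intron between the first and second coding exons, is present in every cell rather than in a chosen cell type, and does not delete any exon, so some normal transcript may still be made. The study reports the protein as undetectable by western blot in stop/stop cerebellum and absent by immunostaining in stop/stop cortex. All embryos shared the C57BL/6N-A tm1Brd background, and the whole cortex was dissected. The WT libraries and Het4 share 1 library prefix and Het1 to Het3 share another with every KO library. The sources used here do not say what the prefix stands for, so genotype and prefix cannot be told apart between KO and WT, and the comparison of KO with Het1 to Het3 lies within 1 prefix.

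AMPA and kainate receptors are glutamate-gated cation channels built from several subunits each, and they carry most of the fast excitatory current of the brain. Within the AMPA family, Gria2 is the subunit whose mRNA is edited at the glutamine/arginine (Q/R) site of the pore, and receptors that hold the edited subunit pass little calcium. Grik1, Grik2 and Grik3 can form channels alone, whereas Grik4 and Grik5 encode high-affinity subunits that need one of those partners. In developing cortex both families are present before most synapses form, and migrating interneurons are known to respond to glutamate. Gatad2b encodes a subunit of the NuRD chromatin remodelling complex.

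The coding sequence around the Q/R site is shown because the same stretch of the pore can be set side by side in all 9 members. Each line gives 27 coding bases from GENCODE vM21 on GRCm38, 5′ to 3′ on the coding strand, with the Q/R codon in capitals.

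Gria1: ggggccttcatgCAGcaaggatgtgac
Gria2: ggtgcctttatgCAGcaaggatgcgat
Gria3: ggtgcttttatgCAGcaaggatgtgat
Gria4: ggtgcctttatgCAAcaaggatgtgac
Grik1: ggagctctcatgCAGcaaggatcggag
Grik2: ggagctctcatgCAGcaaggttctgag
Grik3: ggctccctgatgCAGcaaggatctgaa
Grik4: ggaggcttcatgCAGcaaggctccact
Grik5: ggtggcttcatgCAGcagggctcggag

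The codon was CAG in 8 of the 9 genes and CAA in Gria4, and both codons encode glutamine. Gria2 and Gria3, like Grik1 and Grik2, were identical at 25 of the 27 bases (92.6%), while the least alike pairs, Gria4 with Grik4 and Grik3 with Grik4, were identical at 17 (63.0%). In Gria2 the window lay in exon 11 of 16 at chr3:80706899-80706925 on the minus strand, within a gene that spans chr3:80681450-80802835. Gria1 had its window in exon 11 of 16 at chr11:57243082-57243108 (plus strand), and Gria4 in exon 12 of 17 at chr9:4464125-4464151 (minus strand). The windows of Grik1, Grik2 and Grik3 crossed an exon boundary. The 3′ libraries count the ends of transcripts, so the counts below do not read this site and hold no measure of its editing.

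Each library kept 5147 to 8103 cells with 82872641 to 123737385 UMIs in all, and the median cell held 10795 to 17077.5 UMIs. Gatad2b itself stood at 131 to 139 CPM (UMI counts scaled to a common library total) in the WT embryos, 89.8 to 95.6 in the Het embryos and 50.9 to 57.3 in the KO embryos, in the order of the labels, with no overlap between groups (KO against WT log2 fold change −1.32, SE 0.05). Cells were clustered and named from fixed marker lists, and "-like" marks such a name. Of 26 clusters 22 were named, and 11 classes with at least 20 cells in every embryo were tested. Both ganglionic eminence-like clusters were led by genes of dividing cells (Ube2c, Cenpf, Top2a, Mki67) and had none of their class markers among the 10 leading genes, and at resolution 0.8 one dividing cluster stayed unnamed. The cluster called radial glia-like also scored high on oligodendrocyte precursor markers (mean z-score 3.80 against 2.96 for radial glia). Summed choroid plexus markers in the layer II-IV-like class ranged from 4.11 to 43.4 CPM over the WT libraries and from 1.86 to 2.61 CPM over the Het and KO libraries.

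In the WT cortex the 9 genes divided the cell classes between them. Levels in this and the next 3 paragraphs are plain CPM, as mean ± SD over 3 WT embryos, and are compared between classes for 1 gene at a time. Gria2 was highest in layer II-IV-like neurons at 1659 ± 15.7 CPM, followed by layer V-VI-like neurons at 1090 and subventricular zone-like cells at 690. Neither of the first 2 steps in that order overlapped between embryos, whereas subventricular zone-like and striatal inhibitory-like cells (659) did overlap. Erythroid-like cells, which should lack neuronal receptors, still held 97.2 ± 36.2 CPM of Gria2, and this class is set beside the others as a background. Microglia-like cells held more (295 ± 53.2 CPM) and mural and fibroblast-like cells 105 ± 12.3, so the background was not the same in every class. Its source was not tested.

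Gria1, Gria4, Grik1 and Grik2 were each highest in interneuron-like cells, and none of the 4 overlapped with its next class. Gria1 reached 355 ± 13.4 CPM there, against 76.8 in striatal inhibitory-like and 69.4 in layer I-like cells, and only 15.0 in layer II-IV-like neurons. Gria4 reached 160 ± 10.6 CPM, with layer I-like cells next at 63.1 and layer V-VI-like neurons at 29.2. Grik2 stood at 104 ± 5.8 CPM and Grik1 at 37.6 ± 11.2 in interneuron-like cells, ahead of 53.4 CPM of Grik2 in subventricular zone-like cells and 12.2 CPM of Grik1 in striatal inhibitory-like cells. In layer I-like cells, whose leading genes include Reln and Trp73, known from Cajal-Retzius neurons, Grik2 was near the erythroid-like background (5.67 against 5.47 CPM).

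The other members had other centres. Gria3 was highest in layer V-VI-like neurons (61.0 ± 3.8 CPM) and stood about level in radial glia-like (29.2), interneuron-like (27.0) and layer II-IV-like cells (26.3), whose embryos overlapped. Grik3 was highest in striatal inhibitory-like cells at 62.0 ± 7.5 CPM, with interneuron-like (39.9), layer V-VI-like (31.9) and ganglionic eminence-like cells (17.8) each apart from the class before. Grik3 in layer II-IV-like neurons, 2.79 CPM, overlapped with its erythroid-like background of 2.70. Grik4 was low throughout, at 5.37 CPM in layer I-like and 5.26 in layer V-VI-like cells, which overlapped. Grik5 was even across neurons, between 43.0 and 50.1 CPM in the layer I-like, striatal inhibitory-like, interneuron-like, layer II-IV-like and layer V-VI-like classes, against 5.11 in erythroid-like cells.

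**Figure D1:**
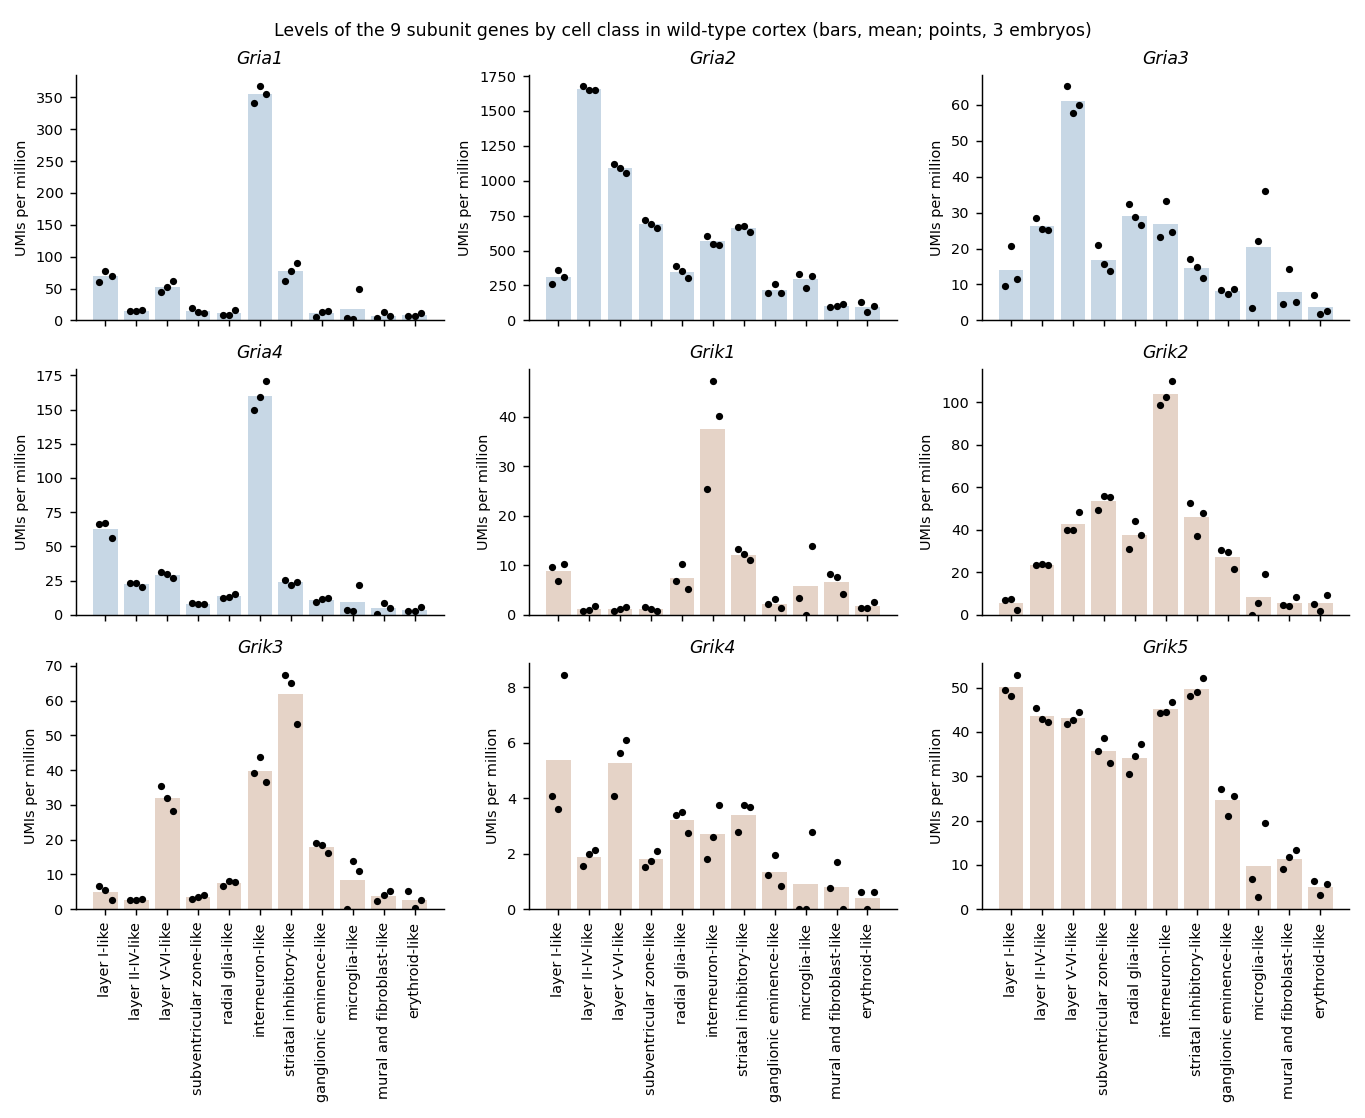
Levels of the 9 subunit genes (CPM, linear axes of their own) in 11 cell classes of wild-type E16.5 cortex; bars are means and points the 3 WT embryos. Gria1, Gria4, Grik1 and Grik2 peak in interneuron-like cells, Gria2 in layer II-IV-like, Gria3 in layer V-VI-like and Grik3 in striatal inhibitory-like cells.

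Clusters of 1 class could differ widely in the members they carried. The interneuron-like cluster led by Maf, Lhx6 and Sst (cluster 1), genes of interneurons from the medial ganglionic eminence, held 540 ± 16.1 CPM of Gria1, whereas the cluster led by Adarb2 and Htr3a (cluster 10), genes of caudally derived interneurons, held 32.7 ± 20.0 CPM. The same contrast read 230 against 61.8 CPM for Gria4, 53.6 against 14.3 for Grik1 and 144 against 46.6 for Grik2. Gria1 also stood among the 10 leading genes of cluster 1, although the 9 members were left out of the genes used to cluster. Among layer V-VI-like neurons, the cluster led by Hs3st4 and Tle4 (cluster 7), genes of layer VI corticothalamic neurons, held 164 ± 16.9 CPM of Gria3 and 98.3 ± 3.39 of Grik3. Clusters 3 (Fezf2, Ldb2) and 6 (Crym, Grp) of the same class held 29.8 and 34.3 CPM of Gria3, and 16.4 and 8.25 CPM of Grik3. Grik4 instead was highest in cluster 6, at 9.89 ± 1.80 CPM. Among striatal inhibitory-like cells, Grik3 stood at 93.2 CPM in the cluster led by Six3 (cluster 5) and at 14.1 CPM in the cluster led by Ebf1 and Isl1 (cluster 9), while Grik1 was the reverse at 5.75 and 21.8 CPM. These levels describe clusters drawn from the same cells and carry no test.

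The class with the highest share of cells with at least 1 UMI was, for each of the 9 members, also the class with the highest CPM once each cell was thinned to 3000 UMIs, which left out 5351 of 65779 cells (2981 WT, 1553 Het and 817 KO). Gria1 was seen in 44.3 ± 1.77% of thinned WT interneuron-like cells (53.3% before thinning, median 6396 UMIs per WT cell), against 2.26% of erythroid-like cells (6.32% before thinning, median 7510). Gria2 was seen in 95.4% of thinned layer II-IV-like cells (99.8% before, median 15460 UMIs) against 13.4% in erythroid-like cells (25.3% before). Grik2 was seen in 22.9% of thinned interneuron-like cells (39.3% before) against 1.34% of erythroid-like cells (3.31% before). Grik4 was seen in 1.33% of thinned layer V-VI-like cells (8.44% before), so single cells say little about it.

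The makeup of the AMPA receptor message differed between interneuron-like and projection neuron classes, though not for every cluster in them. Of all Gria1 to Gria4 UMIs in WT layer II-IV-like neurons, 96.3 ± 0.092% came from Gria2, and in layer V-VI-like neurons 88.4 ± 0.66%. In interneuron-like cells Gria2 gave 51.0 ± 2.69%, Gria1 32.1 ± 1.45% and Gria4 14.5 ± 1.17%, and in layer I-like cells Gria2 gave 68.0 ± 1.98%. The interneuron-like value was led by cluster 1, with 531 CPM of Gria2 beside 540 of Gria1, whereas cluster 10 held 518 CPM of Gria2 beside 32.7 of Gria1 and 61.8 of Gria4. Of interneuron-like cells with any AMPA subunit UMI, 23.4 ± 1.14% had none from Gria2 after thinning (13.1% before), compared with 0.600 ± 0.177% of layer II-IV-like cells (0.0727% before). The share was not particular to interneuron-like cells. It was 27.0 ± 5.85% in layer I-like cells (5.42% before) and 20.9 ± 10.3% in the erythroid-like background (17.2% before). At this depth the absence of a Gria2 UMI in a cell does not show that the cell lacked the transcript.

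**Figure D2:**
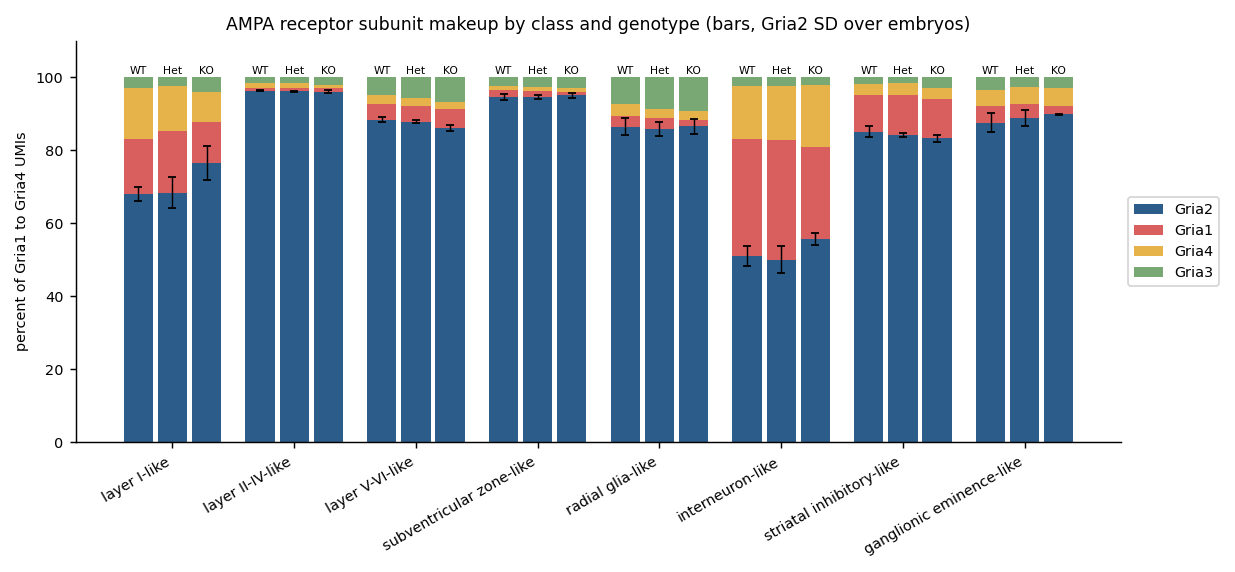
Share of each AMPA subunit gene among all Gria1 to Gria4 UMIs (percent, vertical axis) in 8 classes, with WT, Het and KO side by side; stacked colours are the genes and black bars the SD of the Gria2 share over embryos. Gria2 makes up 96.3% in WT layer II-IV-like neurons and 51.0% in WT interneuron-like cells.

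The first question of the design was how the family's message changed with loss of Gatad2b, and summed over all cells 6 of the 9 members fell in KO against WT and none rose. Across all 17647 genes tested, 12.5% were called lower and 12% higher, where a call needed an adjusted p below 0.05 in edgeR's quasi-likelihood test and a log2 fold change beyond 0.25. The median log2 fold change was −0.42 over the members and −0.01 over all genes. In sums over a whole cortex, fewer cells of a type and less RNA per cell cannot be told apart. From here on levels are CPM scaled by TMM factors.

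Gria4, highest in interneuron-like cells, stood at 36.3, 37.5 and 37.4 CPM in the 3 WT embryos, at 27.4, 31.4, 29.4 and 33.3 in the 4 Het embryos and at 24.1, 22.7 and 27.7 in the 3 KO embryos (KO against WT −0.58, SE 0.08, adjusted p = 0.000333). All KO embryos were below all WT embryos, and so were all Het embryos. Grik2 read 39.4, 41.5 and 44.4 CPM in WT, 37.4 to 40.6 in Het and 30.0, 29.0 and 34.5 in KO (−0.42, SE 0.06, adjusted p = 0.000718), so that only the KO embryos stood apart. Gria1 fell by 0.56 on the log2 scale (SE 0.10, adjusted p = 0.00182), Gria2 by 0.35 (SE 0.07, adjusted p = 0.00385) and Grik4 by 0.58 (SE 0.13, adjusted p = 0.00634). Each of these 5 calls held when any 1 of the 10 embryos was left out. Grik1 also fell (−0.58, SE 0.20, adjusted p = 0.0436), but its WT range of 5.16 to 8.11 CPM overlapped the KO range of 3.89 to 5.67, and the call was lost without WT2, WT3, Het2, Het3, KO1 or KO2 (adjusted p 0.0509 to 0.149). Grik5 was lower by less than the fold threshold (−0.20, adjusted p = 0.00340), and Gria3 (0.15, adjusted p = 0.281) and Grik3 (0.06, adjusted p = 0.595) did not pass. With the library prefix as a term, which rests on Het4 alone, none of the 6 stayed called over all cells and Gria3 was called higher (0.49, adjusted p = 0.0459). Against Het1 to Het3 alone, KO was lower in Grik2 (−0.32, adjusted p = 0.0153) and Grik4 (−0.47, adjusted p = 0.0279).

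Het embryos moved less. Summed over all cells, Gria2 (−0.26, SE 0.07, adjusted p = 0.0496) and Gria4 (−0.29, SE 0.07, adjusted p = 0.0480) were the 2 members called lower in Het against WT and none was called higher, where 1.4% of all genes were called lower and 1.58% higher. Both sat at the threshold, and neither was called with the prefix as a term (Gria2 −0.12, adjusted p = 0.647, and Gria4 −0.15, adjusted p = 0.607). Gria2 kept the call only without Het4 (adjusted p 0.0556 to 0.159 without any other embryo), and Gria4 only without Het4 or KO3 (adjusted p 0.0521 to 0.135 without any other). Against Het, KO embryos had 3 members called lower, Gria1 (−0.36, adjusted p = 0.0403), Gria4 (−0.29, adjusted p = 0.0351) and Grik2 (−0.33, adjusted p = 0.00785), and none called higher, where 2.96% of genes were called lower and 2.53% higher. Grik2 held with any 1 embryo left out, whereas Gria1 was lost without WT2, Het2, Het3, Het4 or any 1 KO embryo (adjusted p 0.0534 to 0.145) and Gria4 without WT2, WT3, Het2, Het3, Het4, KO1 or KO2 (adjusted p 0.0540 to 0.140). The 3 comparisons share embryos and are not independent of each other.

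Read class by class, of 74 pairs of a member and a class that could be tested in KO against WT, 26 were called lower and 1 higher, where 8.11% of all gene and class pairs were called lower and 7.42% higher. Called lower were 4 of 9 members in layer II-IV-like neurons (15.8% of genes there), 4 in layer V-VI-like neurons (12.7%), 3 in interneuron-like cells (9.58%), 4 in striatal inhibitory-like cells (7.27%) and 4 in radial glia-like cells (10.9%). The other calls were 2 of 9 members tested in layer I-like (2.65%), 2 of 7 in subventricular zone-like (8.56%), 1 of 8 in ganglionic eminence-like (4.37%), 1 of 2 in mural and fibroblast-like (0.117%) and 1 of 1 in microglia-like cells (1.99%). In erythroid-like cells neither of 2 members tested was called by edgeR (Gria1 unadjusted p = 0.0843, Gria2 0.836), nor was any gene called lower (0%). In plain CPM, without TMM factors, the summed AMPA genes of this background stood at 71.6 to 149 in WT and 23.2 to 66.3 in KO. The summed kainate genes stood at 7.065 to 20.7 in WT and 2.73 to 8.83 in KO. The part of this background in the calls of other classes was not tested. Against Het, 6 of the 74 pairs were called lower in KO and none higher, where 2.02% of pairs were called lower. These 6 were Gria1 in interneuron-like cells, Gria4 and Grik2 in layer II-IV-like neurons, and Gria4, Grik2 and Grik4 in layer V-VI-like neurons. The share of genes called lower in KO against Het was 1.54% in interneuron-like, 6.24% in layer II-IV-like and 4.8% in layer V-VI-like cells. The same 6 pairs were called against WT, held there without any 1 embryo, and were called again when KO was compared with Het1 to Het3 alone. They also stayed called against WT with the prefix as a term, which left 7 of the 74 pairs called, the other being Gria3 in layer V-VI-like neurons. In place of 27, 14 pairs were called without WT3, without KO1 or without KO2, and 17 without WT2.

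Gria1 in interneuron-like cells was lower in KO than in both other genotypes. Its level was 342, 363 and 348 CPM in the WT embryos, 291, 300, 333 and 290 in the Het embryos and 209, 194 and 203 in the KO embryos. No 2 groups overlapped, and the KO mean was 57.6% of WT by the fit (−0.80, SE 0.06, adjusted p = 1.13e-06) and 66.6% of Het (−0.59, SE 0.06, adjusted p = 7.48e-05). Het against WT was not called (−0.21, SE 0.06, adjusted p = 0.0745). Within 1 prefix the difference from Het1 to Het3 was −0.60 (adjusted p = 0.000148). Gria1 was not called in layer II-IV-like neurons (0.04, SE 0.08, adjusted p = 0.748) or layer V-VI-like neurons (0.04, SE 0.09, adjusted p = 0.763), and the change in interneuron-like cells was lower than in layer II-IV-like cells by 0.83 on the log2 scale (adjusted p = 5.52e-06 in limma, where 12.1% of genes differed).

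Alongside, in interneuron-like cells the summed markers of the ganglionic eminence, the source of these neurons, stood at 903 to 995 CPM in WT, 1025 to 1130 across the Het embryos and 1229 to 1305 in KO, with 4 of 6 tested markers called higher and none lower in KO. Over the 11 classes 7.42% of all gene and class pairs were called higher, and in this class 9.58% of genes were called lower. The interneuron markers overlapped between genotypes (3204 to 3699 CPM in WT and 3328 to 3671 in KO). The share of the class held by the shallow cluster 12 was 19.2% in WT and 11.6% in KO, and that of cluster 10 was 19.2% and 25.3%. Within cluster 1 alone, Gria1 read 534, 524 and 546 CPM in WT, 452, 446, 474 and 437 in Het and 325, 285 and 311 in KO (−0.80 against WT, adjusted p = 2.27e-07), as large as in the whole class. The part of the eminence markers in that result was not tested.

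Gria1 was also called lower in 5 other classes. In subventricular zone-like cells it fell by 1.30 (SE 0.28, adjusted p = 0.00413), from 10.8 to 18.5 CPM in WT to 5.06 to 6.59 in KO, a call that held without any 1 embryo but not with the prefix as a term (−1.19, adjusted p = 0.243). The calls in ganglionic eminence-like (−1.30), radial glia-like (−1.04), layer I-like (−0.60) and striatal inhibitory-like cells (−0.41) did not all hold. They were lost in ganglionic eminence-like cells without WT2, WT3 or any 1 KO embryo (adjusted p 0.0591 to 0.149), in radial glia-like and layer I-like cells without WT2, WT3, KO1 or KO2 (adjusted p 0.0518 to 0.257), and in striatal inhibitory-like cells without WT3 or KO2 (adjusted p 0.0722 to 0.0948). KO levels of Gria1 were 3.11 to 5.17 CPM in ganglionic eminence-like and 3.23 to 7.51 in radial glia-like cells. Erythroid-like cells, scaled by TMM factors of their own, stood at 3.89 to 6.47 CPM in WT and 0.93 to 5.41 in KO. In plain CPM the erythroid-like background of WT embryos was 7.065 to 11.3. It overlapped the WT levels in ganglionic eminence-like (5.435 to 14.2) and radial glia-like cells (8.26 to 16.8). The lowest WT embryo in subventricular zone-like cells (mean 14.6) also lay within it. What this background adds to these calls was not tested.

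Gria2, the calcium-limiting subunit, was called lower in KO in 8 of the 11 classes, among them the microglia-like and the mural and fibroblast-like class. Layer II-IV-like neurons held 1649, 1632 and 1611 CPM in WT, 1372, 1360, 1417 and 1608 in Het and 1226, 1314 and 1468 in KO (−0.29, SE 0.07, adjusted p = 0.00404). The Het embryo that stayed at the WT level was Het4, which shares the WT prefix. In striatal inhibitory-like cells WT held 625 to 668 CPM, Het1 to Het3 458 to 473, Het4 566 and KO 415 to 476 (−0.55, SE 0.08, adjusted p = 0.000185). Against Het1 to Het3 alone, Gria2 in KO did not pass in any of the classes, with log2 differences of −0.05 (SE 0.06) in layer II-IV-like, −0.07 (SE 0.06) in striatal inhibitory-like and −0.03 (SE 0.06, adjusted p = 0.795) over all cells. With the prefix as a term, the KO against WT difference in interneuron-like cells turned to 0.0053 (adjusted p = 0.997) from −0.32. In radial glia-like cells Het4 (244 CPM) instead lay among Het1 to Het3 (237 to 249), below all WT embryos (295 to 388), and with the prefix as a term KO against WT was −0.33 (SE 0.15, adjusted p = 0.236). In subventricular zone-like cells Het4 (561 CPM) lay below Het3 (588) and above Het1 (458) and Het2 (449), and in interneuron-like cells Het4 (550 CPM) lay above the other Het embryos (396 to 472) and within the WT range (527 to 610). For Gria2, genotype and prefix cannot be told apart between KO and WT.

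Other calls for Gria2 were less firm. In layer II-IV-like neurons the fold dropped under the threshold without KO1 (−0.23, adjusted p = 0.0208), and in layer V-VI-like neurons (−0.26) the call was lost without WT1 or KO1 (adjusted p 0.0422, with a fold under the threshold, and 0.0563). Interneuron-like cells lost it without any 1 WT embryo, KO1 or KO2 (adjusted p 0.0560 to 0.155), and subventricular zone-like cells (−0.36) without WT1, KO1 or KO2 (adjusted p 0.0523 to 0.0833). Radial glia-like cells (−0.35, adjusted p = 0.00844) and striatal inhibitory-like cells kept it without any 1 embryo. In microglia-like cells Gria2 read −2.05, beside summed newborn neuron markers of 2478 to 3317 CPM in WT and 319 to 1014 in KO, so neuronal RNA moved with it, and its part was not tested. That call was lost without WT3 or any 1 KO embryo (adjusted p 0.0566 to 0.115), and the call in mural and fibroblast-like cells (−1.96) held only without Het3 or Het4 (adjusted p 0.0512 to 0.164 otherwise). WT mural and fibroblast-like cells held 96.45 to 119 plain CPM of Gria2, within the 59.8 to 132 of WT erythroid-like cells.

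Het against WT had 3 of the 74 pairs called lower and none higher, where 0.873% of all pairs were called lower. Gria2 was called in radial glia-like (−0.50, adjusted p = 0.00753) and striatal inhibitory-like cells (−0.40, adjusted p = 0.0124), the latter lost without any 1 WT embryo or Het3 (adjusted p 0.0504 to 0.0794). With the prefix as a term neither was called (−0.49, adjusted p = 0.0935, and −0.20, adjusted p = 0.714). Gria4 in layer II-IV-like neurons was the third (−0.33, SE 0.06, adjusted p = 0.00751) and held without any 1 embryo.

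Gria4, a minor AMPA subunit in projection neurons, fell in both of their classes and in layer I-like and striatal inhibitory-like cells. Layer II-IV-like neurons held 22.9, 22.7 and 20.2 CPM in WT, 17.4, 18.1, 18.0 and 16.6 in Het and 12.3, 10.7 and 11.8 in KO. The 3 groups did not overlap, and KO stood at 52.9% of WT (−0.92, SE 0.07, adjusted p = 2.71e-07) and 66.4% of Het (−0.59, SE 0.07, adjusted p = 4.42e-05). Het4, with the WT prefix, lay at the low end of the Het embryos, and within 1 prefix KO against Het1 to Het3 gave −0.61 (adjusted p = 5.03e-05). In layer V-VI-like neurons Gria4 stood at 30.7, 29.5 and 25.9 CPM in WT, 24.4, 24.3, 23.8 and 24.4 in Het and 21.5, 16.6 and 20.1 in KO (−0.56, SE 0.08, adjusted p = 0.000184). The difference from Het there (−0.31, adjusted p = 0.0179) was lost without KO2 (adjusted p = 0.0750). Layer I-like cells fell by 0.99 (SE 0.18, adjusted p = 0.00187), from 55.3 to 66.7 CPM in WT to 21.6 to 40.7 in KO, also without any 1 embryo but not with the prefix as a term (−0.58, adjusted p = 0.433).

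In interneuron-like cells, where Gria4 is highest, the KO difference was −0.22 (SE 0.07, adjusted p = 0.0290), under the fold threshold, and the change in layer II-IV-like neurons was larger by 0.69 (adjusted p = 4.07e-05). The change in layer II-IV-like neurons was also larger than in layer V-VI-like neurons, by 0.34 (adjusted p = 0.00273, where 15.8% of genes differed). Striatal inhibitory-like cells read −0.55, a call lost without WT1, WT3, KO1 or KO3 (adjusted p 0.0571 to 0.0723). Gria3, in contrast, was called lower in interneuron-like cells and in no other class (−0.59, SE 0.19, adjusted p = 0.0376), a call lost without WT2, WT3, KO1 or KO2 (adjusted p 0.0548 to 0.174). Its level in layer V-VI-like neurons, 57.4 to 64.0 CPM in WT and 67.3 to 75.0 in KO, did not overlap but was under the fold threshold (0.24, adjusted p = 0.0196). With the prefix as a term that value was 0.41 (adjusted p = 0.0306). Striatal inhibitory-like Gria3 was higher in KO than in Het1 to Het3 (0.81, adjusted p = 0.0362) and not different from WT by the test (0.15, SE 0.16, adjusted p = 0.580).

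**Figure D3:**
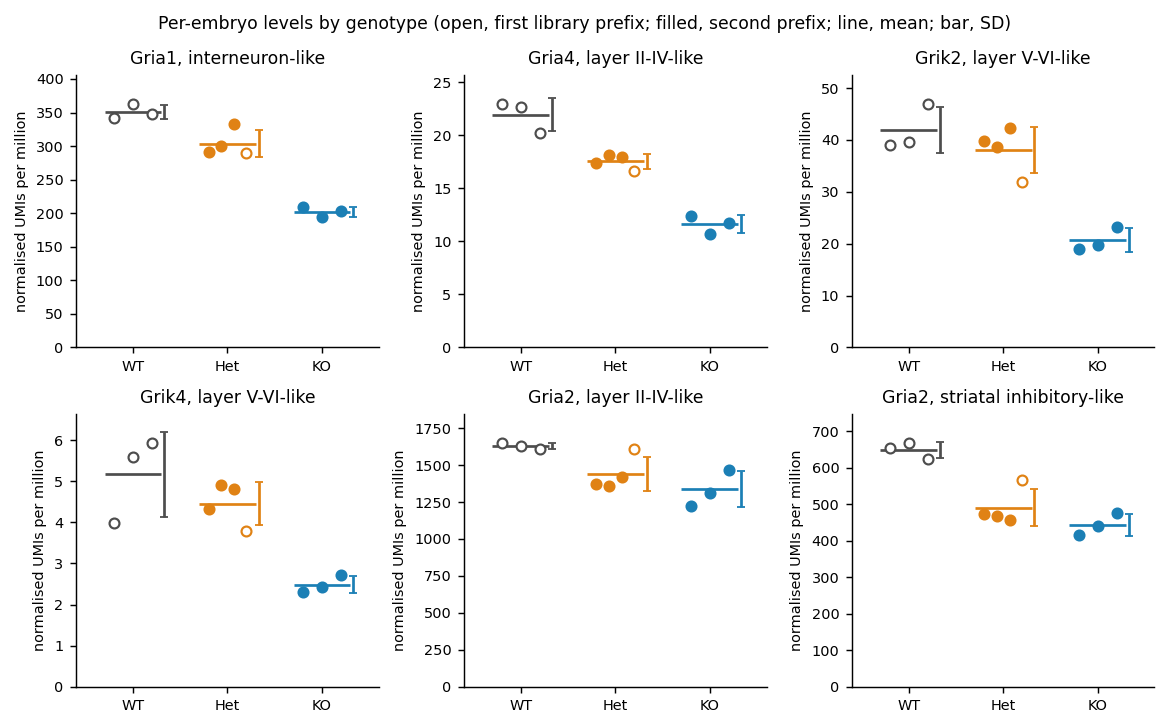
Normalised levels (CPM, axes from 0) of 5 subunit genes in chosen classes for each embryo by genotype; open points share the WT library prefix, filled points the other, lines are means and bars SDs. In Gria1, Gria4, Grik2 and Grik4 every KO point lies below every Het point, while for Gria2 the open Het4 point lies above the filled Het points.

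Among the kainate receptor genes, Grik2 and Grik4 fell in deep-layer neurons. Grik2, a channel-forming subunit, stood in layer V-VI-like neurons at 39.0, 39.6 and 47.0 CPM in WT, 39.8, 38.6, 42.2 and 31.8 in Het and 19.0, 19.8 and 23.3 in KO. The WT and Het embryos overlapped and the KO embryos lay below both, at 49.5% of WT (−1.01, SE 0.11, adjusted p = 9.71e-06) and 54.4% of Het (−0.88, SE 0.10, adjusted p = 5.86e-05). Within 1 prefix the value was −0.96 (adjusted p = 1.43e-06). In layer II-IV-like neurons Grik2 ranged from 22.8 to 23.6 CPM in WT, from 18.3 to 22.4 across the Het embryos and from 13.2 to 17.3 in KO (−0.57, SE 0.09, adjusted p = 0.000135), less than in layer V-VI-like neurons by 0.43 (adjusted p = 0.0141). Interneuron-like cells, with the highest level, read 99.3 to 108 CPM in WT and 91.4 to 98.8 in KO (−0.11, SE 0.07, adjusted p = 0.248).

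Grik4, a high-affinity subunit, stood in layer V-VI-like neurons at 3.99, 5.59 and 5.93 CPM in WT, 4.32, 4.91, 4.81 and 3.79 in Het and 2.30, 2.44 and 2.71 in KO. All KO embryos lay below the rest (−1.06, SE 0.17, adjusted p = 0.000363 against WT, −0.84, adjusted p = 0.00353 against Het, and −0.92, adjusted p = 0.000485 within 1 prefix). These values rest on 52 to 75 UMIs in a KO embryo and 120 to 199 in a WT embryo. The change differed from that in layer II-IV-like neurons (−0.24, SE 0.18, adjusted p = 0.295) by 0.79 (adjusted p = 0.00642).

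The remaining kainate genes gave smaller or less firm calls. Grik1 fell in layer II-IV-like neurons by 1.40 (SE 0.31, adjusted p = 0.00259), and kept the call without any 1 embryo but not with the prefix as a term (−1.53, adjusted p = 0.0718), on 31 to 50 UMIs in a WT embryo and 8 to 14 in a KO embryo. WT Grik1 in layer II-IV-like neurons, 1.19 plain CPM (0.84 to 1.69), overlapped its erythroid-like background of 1.73 (1.28 to 2.51). In striatal inhibitory-like cells (−0.79, adjusted p = 0.0285) the Grik1 call was lost without any 1 WT embryo, KO2 or KO3 (adjusted p 0.0507 to 0.172), and in interneuron-like cells, its main site, it did not pass (−0.51, SE 0.19, adjusted p = 0.0702). Grik3 was the 1 member called higher, in layer V-VI-like neurons, at 27.6 to 34.7 CPM in WT and 34.7 to 42.0 in KO (0.29, SE 0.10, adjusted p = 0.0457), and this call was lost without WT2, WT3, Het3, KO1 or KO2 (adjusted p 0.0568 to 0.182). In radial glia-like cells Grik3 (−1.37) and Grik5 (−0.37) were called lower, and both calls were lost without WT2, WT3, KO1 or KO2 (adjusted p 0.0644 to 0.197). Grik5, the other high-affinity subunit, differed by less than the fold threshold in layer II-IV-like neurons (−0.22, adjusted p = 0.00151) and did not pass in layer V-VI-like neurons (−0.07, SE 0.05, adjusted p = 0.342).

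**Figure D4:**
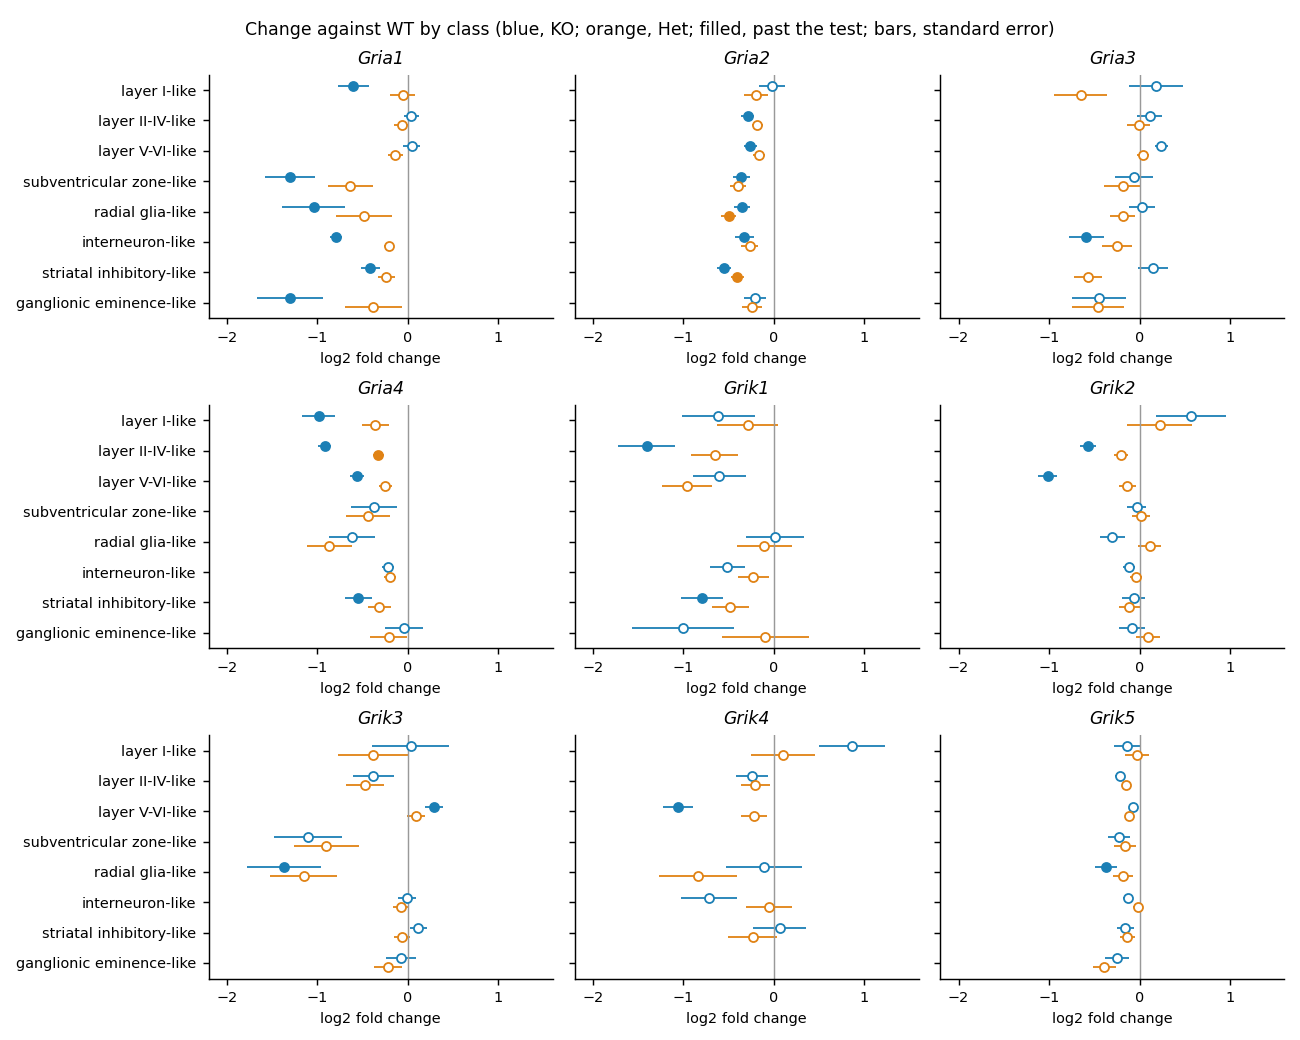
Log2 fold change of each member against WT in 8 classes (horizontal axis; blue, KO; orange, Het; bars, standard error; filled, called). Gria4 and Grik2 have filled blue points in layer II-IV-like and layer V-VI-like neurons, and the filled Gria1 points include interneuron-like but neither class of projection neurons.

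Interneuron markers moved in projection neuron classes with these results. In layer II-IV-like neurons the summed interneuron markers stood at 114 to 145 CPM in WT, 82.5 to 118 across the Het embryos and 49.8 to 59.9 in KO, with 9 of 12 markers called lower and 1 higher in KO. In layer V-VI-like neurons they stood at 232 to 238, 231 to 253 and 109 to 138 CPM, with 6 of 12 called lower and none higher. Of all genes, 15.8% were called lower in layer II-IV-like and 12.7% in layer V-VI-like neurons. Over the 11 classes 7.42% of gene and class pairs were called higher. Set against 100 CPM of these markers, Gria4 in WT layer II-IV-like neurons stood at 16.7 ± 2.93 CPM and Grik2 at 17.7 ± 2.26, whereas interneuron-like cells held 4.50 ± 0.230 and 2.92 ± 0.184. In layer V-VI-like neurons the WT values were 12.2 ± 0.914 for Gria4 and 17.8 ± 2.12 for Grik2, also above the interneuron-like ratio. In KO the ratios were 21.1 ± 0.438 and 28.2 ± 2.43 in layer II-IV-like neurons and 16.1 ± 1.18 and 17.4 ± 3.31 in layer V-VI-like neurons, so that Grik2 and the markers were lower together in the layer V-VI-like class. Grik1 in layer II-IV-like neurons, at 0.874 ± 0.275 in WT and 0.790 ± 0.218 in KO, did not exceed its interneuron-like ratio of 1.04 ± 0.236 in WT. Gria1, not called in either class, stood at 11.2 ± 0.925 in WT and 27.4 ± 3.03 in KO layer II-IV-like neurons, beside 9.99 ± 0.622 in WT interneuron-like cells. In layer V-VI-like neurons its ratio was 22.1 ± 3.99 in WT and 44.8 ± 5.42 in KO. The part of interneuron RNA in the Gria1, Gria4, Grik1 and Grik2 results of these classes was not tested.

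Single clusters showed opposite changes of Gria1 inside the layer V-VI-like class, which the class sum did not. Over 23 of the 26 clusters, 41 of 159 member and cluster pairs were called lower and 6 higher in KO against WT, where 6.77% of all pairs were called lower and 6.34% higher. Fits of single clusters, here and in other paragraphs, were not repeated with the prefix as a term. Nor were they repeated against Het1 to Het3 alone or without any 1 embryo. In cluster 7 (Hs3st4, Tle4) Gria1 stood at 39.0, 41.1 and 39.6 CPM in WT, 37.8, 40.4, 44.1 and 42.8 in Het and 78.5, 78.7 and 84.1 in KO. Every KO embryo stood above every other embryo, with a log2 fold change of 1.01 against WT (SE 0.08, adjusted p = 9.31e-09) and 0.96 against Het (SE 0.07, adjusted p = 1.23e-08). In cluster 6 (Crym, Grp) Gria1 went the other way, with 69.1 to 99.5 CPM in WT, 69.4 to 81.9 across the Het embryos and 42.7 to 56.5 in KO (−0.75, SE 0.12, adjusted p = 0.000388). Gria1 also rose in clusters 3 (0.41, adjusted p = 0.0153) and 0 (0.36, adjusted p = 0.00399) and fell in cluster 2, led by Unc5d and Rnd2 (−0.53, adjusted p = 0.00317).

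Grik2 fell in each of the 3 layer V-VI-like clusters, by 1.44 (adjusted p = 1.65e-07) in cluster 3, by 0.84 (adjusted p = 0.000933) in cluster 6 and by 0.39 (adjusted p = 0.0254) in cluster 7, where WT (21.7 to 28.5 CPM) and KO (17.3 to 21.9) overlapped. In cluster 3 its level was 40.9 to 51.5 CPM in WT, 32.8 to 46.7 across the Het embryos and 15.1 to 17.5 in KO. Cluster 0, the largest layer II-IV-like cluster, showed a like size of change for Grik2 (−1.42, SE 0.11, adjusted p = 5.37e-08), while Grik2 was not called in cluster 2 of the same class. Gria4 fell by 1.13 (adjusted p = 5.13e-08) in cluster 3 and by 0.98 (adjusted p = 7.69e-08) in cluster 0. Grik4 fell by 1.47 in cluster 7 (adjusted p = 0.000677) and by 1.03 in cluster 6 (adjusted p = 0.000849). Clusters also changed their share of the class: cluster 2 made up 27.0% of layer II-IV-like cells in WT and 43.8% in KO, and cluster 0 made up 59.0% and 48.2%. For layer V-VI-like neurons the 3 clusters kept shares within 2 percentage points on average (40.2 and 41.7% for cluster 3, 31.6 and 30.0% for cluster 6, 28.2 and 28.4% for cluster 7).

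**Figure D5:**
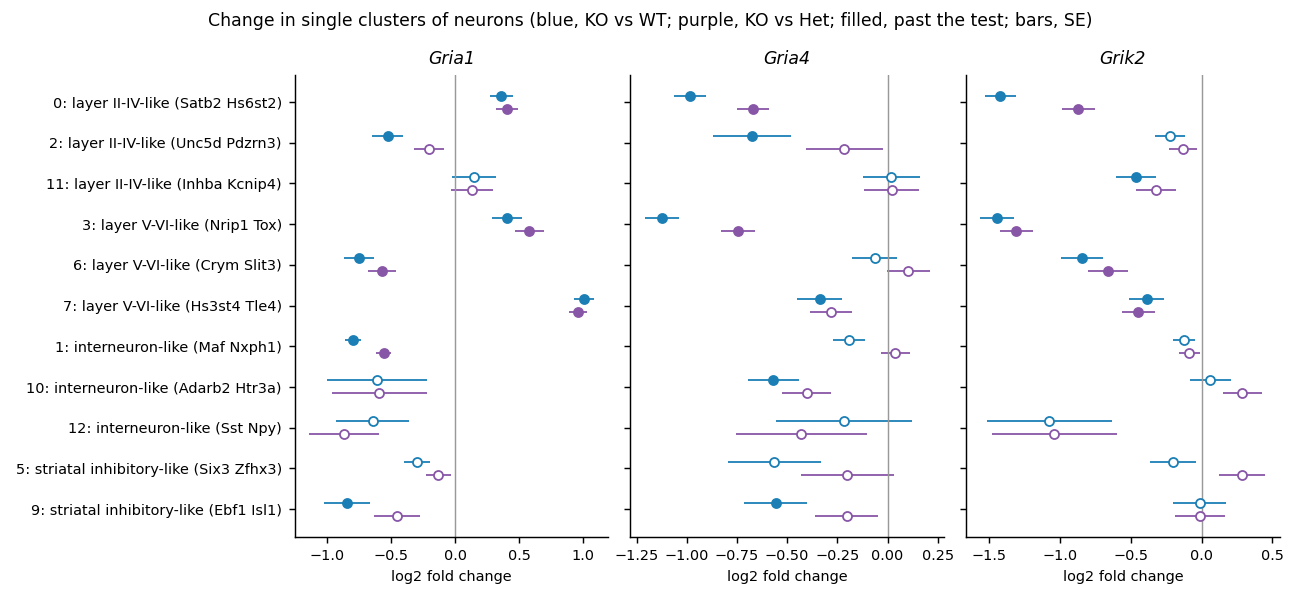
Log2 fold change (horizontal axis) of Gria1, Gria4 and Grik2 in 11 neuronal clusters, each named by its class and 2 leading genes; blue is KO against WT, purple KO against Het, bars are standard errors and filled points are called. Gria1 lies at 1.01 in cluster 7 and −0.75 in cluster 6, while Grik2 lies below 0 in clusters 0, 3, 6 and 7.

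The AMPA makeup of interneuron-like cells shifted with Gria1. Its share of AMPA UMIs was 30.4 to 33.1% in WT, 28.8 to 35.6% across the Het embryos and 23.2 to 26.4% in KO, with KO below the others. The Gria2 share was 51.0 ± 2.69% in WT, 49.95 ± 3.70% in Het and 55.6 ± 1.73% in KO, and the Het range (46.9 to 54.5%) overlapped that of KO (54.4 to 57.6%). Thinned interneuron-like cells with UMIs of 2 or more AMPA genes went from 43.5 to 47.0% in WT to 29.2 to 35.5% in KO (60.5 ± 1.40% and 52.9 ± 3.60% before thinning), against 0.822% in WT erythroid-like cells. The share without Gria2 among thinned interneuron-like cells with any AMPA UMI overlapped between WT (22.1 to 24.2%) and KO (21.3 to 27.0%). The Het embryos, at 25.4 to 30.1%, lay above WT. Before thinning this share was 12.55 to 13.9% in WT, below both Het (14.5 to 19.0%) and KO (15.7 to 16.4%). In layer II-IV-like neurons the Gria2 share overlapped between genotypes (96.2 to 96.4% in WT and 95.8 to 96.5% in KO). It did not overlap between WT and KO in layer V-VI-like neurons (87.6 to 88.9% and 85.1 to 86.8%), where the Gria3 share was 4.69 to 5.16% in WT and 6.64 to 7.07% in KO, or in layer I-like cells (65.7 to 69.4% and 71.2 to 79.5%). Layer I-like Het embryos (64.7 to 73.2%) overlapped both. WT and KO were also apart in interneuron-like (WT 49.4 to 54.2%) and ganglionic eminence-like cells (84.7 to 89.3% and 89.7 to 90.0%). The erythroid-like background rose too (83.55 to 88.5% and 91.2 to 92.3%), while mural and fibroblast-like cells were lower in KO (73.9 to 92.1% and 55.3 to 73.3%).

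Genes that work with these receptors were followed in lists over all cells. Of 14 auxiliary subunits, which set the trafficking and gating of the receptors, 6 were called lower in KO against WT and none higher (median −0.21 against −0.01 over all genes, of which 12.5% were called lower and 12% higher). Neto1, an auxiliary subunit of kainate receptors, stood at 13.7, 17.2 and 16.2 CPM in WT, 10.7 to 14.2 in Het and 6.13, 6.23 and 6.51 in KO (−1.32, adjusted p = 1.24e-05). It was also called against Het (−0.94) and in Het against WT (−0.37), with no overlap between KO and the rest. The Het against WT call sat at the threshold (adjusted p = 0.0497 by edgeR), and Het4, with the WT prefix, lay above WT1 (14.2 and 13.7 CPM). Neto2, its relative, fell by 0.43, and the AMPA receptor partners Cacng3, Gsg1l and Cacng8 fell by 0.74, 0.43 and 0.26. Gsg1l overlapped between WT (4.19 to 5.70 CPM) and KO (2.96 to 4.215). Against Het, 2 of the 14 were called lower in KO, Neto1 and Neto2 (−0.34), and none higher. Of all genes, 2.96% were called lower and 2.53% higher there. Cacng3 (−0.515), Gsg1l (−0.09) and Cacng8 (−0.16) were not called against Het. The remaining call against WT, Cacng7 (−1.28), read 25.2 to 29.3 CPM in WT and 32.9 in Het4, which share a prefix, and 9.37 to 13.0 in Het1 to Het3 and KO. The part of the prefix in it was not tested.

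Among 13 scaffolding, trafficking and RNA-editing genes tested, 3 were called lower and 1 higher in KO against WT (median −0.10), beside the 12.5% and 12% of all genes. The counts of this list and of those that follow are small. Dlg2, which encodes the postsynaptic scaffold PSD-93, read 62.5 to 66.8 CPM in WT, 48.9 to 53.1 across the Het embryos and 36.5 to 40.3 in KO (−0.75), without overlap, and was called in each comparison. Grip2 fell by 0.44 and Adarb1, the editing enzyme of the Q/R site, by 0.25, and neither was called against Het. Nptx1, a secreted pentraxin that clusters AMPA receptors, was higher in KO (10.7 to 11.7 CPM) than in WT (6.50 to 7.21, log2 0.69). Of 10 neuronal maturation genes, 2 fell (Camk2b −0.40, Syt1 −0.39) and 2 rose (Nefl 0.61, Nefm 0.58), and of 6 genes of newborn neurons 1 fell (Tubb3 −0.31) and 3 rose (Neurod1 0.44, Sox11 0.40, Sox4 0.32). For Syt1, Het4 (189 CPM) lay within WT (170 to 194) and Het1 to Het3 (136 to 163) below it. For Tubb3, Het4 (1821 CPM) lay within WT (1788 to 1909) and Het1 to Het3 (1520 to 1669) below it. The part of the prefix in both was not tested. Against Het, Camk2b, Nefl and Nefm were called, but not Syt1 or any gene of newborn neurons. The sum of that last list also moved within the classes above, from 11350 to 11940 CPM in WT to 14060 to 14860 in KO in layer II-IV-like neurons, from 10630 in every WT embryo to 12140 to 12370 in layer V-VI-like neurons, and from 9693 to 10830 up to 11480 to 12110 in interneuron-like cells. Over all cells the largest genes of that list were Sox11 (mean 3980 CPM in WT and 5243 in KO) and Sox4 (2337 and 2914). Tubb3 went from 1857 to 1499 there, Igfbpl1 from 935 to 962, Dcx from 762 to 862 and Neurod1 from 113 to 154. The part of this sum in the changes of the members was not tested.

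The genes whose WT class pattern was most like that of each member were found by Pearson's r of mean log2 CPM over the 11 classes, which share libraries and so are described without a test. Gria3 was most like Nlgn1 (r = 0.918) and Lrrtm4 (0.917), both synaptic adhesion genes, and Grik3 most like Bcl11b (0.935), a transcription factor of deep-layer and striatal neurons, and Rgs8 (0.908). Grik1 was least closely matched, by Ptchd4 and Neto1 (0.837 each). Gria1 followed Gm31305 (0.946) and BC030500 (0.941), Gria2 Pcdh7 (0.963) and Fam84a (0.961), Gria4 Dpp10 (0.967), which encodes a potassium channel partner, and Pde4dip (0.958). Grik2 followed Siah3 (0.934) and Zfp811 (0.932), Grik4 Unc80 (0.970), a subunit of the NALCN channel complex, and 3632451O06Rik (0.966), and Grik5 Mkrn3 (0.989) and Usp11 (0.985). Between members, Gria1 and Gria4 were the most alike pair (0.926), and Gria2 and Grik1 gave the lowest value (−0.10).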

How the data were processed

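Deposited values were whole-number UMI counts per gene and barcode, which the authors made from 10x Genomics 3′ reads. The file headers and submitters' processing notes name Cell Ranger 6.0.2 and mm10, while the study's methods name another Cell Ranger release. Of 80071 deposited barcodes, 65779 passed as cells (1000 UMIs or more, no more than 10% of them mitochondrial), and 496 barcode sequences occurred in more than 1 library. Doublets were marked (4.12 to 6.48% per embryo) but kept, and their removal was an alternative.

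Cells were clustered with Seurat 5.3.0 (R 4.3.3; RPCA integration, 2000 variable genes without the 9 members, 30 principal components, resolution 0.4). A class name needed a mean marker z-score of at least 0.5, at least 3 markers detected in 10% of cells, no other list with more markers among the 10 leading genes, and a margin of 0.4 over any other class that met these conditions, and shallow clusters also needed a marker among those genes. The markers were fixed, whereas this naming rule was set after cluster markers were seen, so class names are rebuilt and can differ from the study's. Summing used Python 3.11.15 with NumPy 2.4.6 and pandas 2.3.3.

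UMIs were summed per embryo and class, filtered with filterByExpr, scaled by TMM and tested with edgeR 4.0.16 (quasi-likelihood, 10 embryos, no covariate, Benjamini-Hochberg over all genes tested). Differences between classes were tested with limma 3.58.1 on each embryo's difference of log2 CPM. DESeq2 1.42.0 was an alternative. Classes needed 20 cells in every embryo, which left 11 classes and 23 of 26 clusters. Shares of cells were taken after thinning to 3000 UMIs. The Q/R codon was placed by its fixed distance from a conserved stretch of the next membrane segment. The code was tested on simulated data with 200 changed genes. Over all cells, 10.2% of Het against WT log2 changes of 0.25, the fold threshold itself, were called, and 48.5% of those of 0.5. For KO against WT changes of 0.5 the share was 52.0% over all cells and 54.55% in interneuron-like cells.

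The named genes are the 9 members, at most 6 called genes of each list by size of change, and for each member the 2 genes most like it over the classes among genes with at least 5 CPM in 1 class. Pick1, listed in 2 rows, was left out. A further gene list is not reported here. Members and lists were chosen with earlier results of these data known. The study describes its Het and WT embryos as littermates, but the sources used here do not tie embryos to litters, and each embryo counted as 1 replicate.

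Replicate numbers did not pair the samples: correlations of same-numbered deviations ran from −0.676 to 0.126, with 2 of 9 over 0.1. Alternatives were normalization, low-count filter, DESeq2, prefix term, replicate block, only 2 genotypes, other cell filters, other clustering and leaving out each embryo.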

Additional observations from a re-analysis of the deposited data

Results flagged for a closer look

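In 4 of 83 groups of 4 Het embryos looked at, 1 embryo lay far from the other 3, and chance gives about 1 in 20 such groups. Gria2 in Het4 stood at 1056 CPM in layer V-VI-like neurons (others 907 to 932) and at 565.7 CPM in striatal inhibitory-like cells (others 458 to 473). Gria4 in Het3 stood at 23.81 CPM in layer V-VI-like neurons (others 24.3 to 24.4), a small gap in a tight group. Grik3 in Het2 stood at 27.25 CPM in layer V-VI-like neurons (others 34.9 to 36.2).

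For 8 results, over 9 members and 2 pairs of classes, the KO against WT change differed between classes by a limma test of the difference itself, where 15.8% of all genes differed between layer II-IV-like and layer V-VI-like neurons and 12.1% between layer II-IV-like neurons and interneuron-like cells. For layer II-IV-like minus layer V-VI-like neurons the log2 differences were −0.68 for Grik3 (adjusted p = 0.0258), 0.43 for Grik2 (adjusted p = 0.0141), −0.34 for Gria4 (adjusted p = 0.00273) and 0.79 for Grik4 (adjusted p = 0.00642). For layer II-IV-like neurons minus interneuron-like cells they were 0.70 for Gria3 (adjusted p = 0.00365), −0.47 for Grik2 (adjusted p = 0.00760), −0.69 for Gria4 (adjusted p = 4.07e-05) and 0.83 for Gria1 (adjusted p = 5.52e-06).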

How the results depend on the processing

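Of 1512 alternatives over 81 results of single genes, 1299 kept direction and side of the threshold, 201 no longer passed, 11 newly passed and 1 reversed. The reversed one was Gria2 in interneuron-like cells, KO against WT, at 0.0053 (adjusted p = 0.997) with the prefix as a term. The cause was not tested.

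Members called in Het against WT over all cells (2) were 0 with the prefix term, with only 2 genotypes, with at least 3000 UMIs or without marked doublets, and 1 with at most 5% mitochondrial UMIs (0 to 2 leaving out 1 embryo). Their class pairs (3) were 5 by DESeq2, 13 without the filter, 1 with the prefix term and 8 over clusters (2 to 11 leaving out 1 embryo, 11 without Het4). Members called in KO against WT over all cells (6) were 1 with the prefix term (5 to 6 leaving out 1 embryo). That 1 was Gria3, called higher and not among the 6. The pairs (27) were 7 with the prefix term, 15 with at most 5% mitochondrial UMIs and 47 over clusters (14 to 28 leaving out 1 embryo, 14 without WT3, KO1 or KO2 and 17 without WT2). KO against Het gave 3 over all cells (1 to 4 leaving out 1 embryo) and 6 pairs, which were 15 without the filter and 16 over clusters (5 to 7 leaving out 1 embryo). Class differences (8) were 4 with the prefix term (6 to 9 leaving out 1 embryo).

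With a replicate block, although the numbers share no stated origin, class pairs called in Het against WT were 12. The block gave 2, 6 and 4 members over all cells for Het against WT, KO against WT and KO against Het, with 28 and 7 class pairs for the last 2 comparisons and 8 class differences. The highest class by thinned share of cells was that by CPM for all 9 members, but for 4 without thinning. The share of Gria2 in the AMPA subunit UMIs of WT interneuron-like cells, 51.0%, was 50.7% in cells with at least 3000 UMIs. The error of the KO against WT change over all cells was largest, among the 9 members, for Grik1 (SE 0.20) and Grik4 (SE 0.13).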

Other observations

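An unnamed cluster of shallow barcodes (cluster 15, median 1523 UMIs) carried more of every member by CPM than the named classes of projection neurons. WT embryos held 5239 ± 504 CPM of Gria2 there, 244.5 ± 16.6 of Grik2 and 167 ± 12.4 of Grik5. It made up 4.27% of cells in WT, 1.64% in Het and 1.24% in KO, and none of the 8 members tested was called in it between KO and WT by edgeR (2 had an unadjusted p below 0.05, Grik1 and Grik2). Snhg11, Pfkp, Csmd3 and Arpp21 were among its leading genes beside unannotated gene models, and what these barcodes are was not tested.

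In another unnamed cluster (cluster 4), led by Fam19a1 and Tfap2d, Gria3 stood at 43.8, 50.1 and 48.5 CPM in WT and at 71.4, 58.5 and 73.3 in KO (0.52, SE 0.12, adjusted p = 0.0188 by edgeR). The 4 Het embryos held 46.0, 47.5, 54.1 and 65.5 CPM there, and Het4, which shares the WT prefix, was the highest of them. Gria3 in cluster 11, a layer II-IV-like cluster, went the other way (−0.86, SE 0.22, adjusted p = 0.00804).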
